A study of Mus musculus with 6 samples.

Results

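The genes described here are 7 that are known, as a group, for hormone-dependent expression in the epithelium of the female reproductive tract: Lcn2, Ltf, C3, Muc1, Wfdc2, Prap1 and Greb1. They were taken by symbol from tables that list 20637 genes, and all 7 were found. The choice was made with earlier results of this comparison known, so their differences between the groups are given as descriptions, with no p-value. Whole uteri of female mice were collected on postnatal day 21 and their polyA RNA was sequenced. There were 3 libraries labelled Nat10 f/f (floxed alleles, the controls) and 3 labelled Nat10 d/d (deleted alleles). Age and tissue were shared by both groups. The labels name no Cre driver, no deleted exon, no strain, and no litter or date, and nothing states that each library came from a separate animal. Where it did not, p-values measure only the spread between these samples, which may be technical. Nat10 encodes an RNA cytidine acetyltransferase.

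Oestrogen acts in the uterus through the receptor Esr1, which is present in epithelium and stroma, and sets the epithelium to divide and to secrete. Several classical readouts of this response are proteins of the luminal fluid and surface: the iron carriers lactoferrin and lipocalin 2, complement C3 and the mucin Muc1. Progesterone, through the receptor Pgr, opposes or reshapes many of these responses. On the day studied the mice were at weaning age, before puberty. The label of the group holds loosely for some members, since Muc1 is anchored in the membrane and Greb1 is an intracellular cofactor of Esr1, not a secreted protein. Ltf and Lcn2 are also proteins of neutrophil granules.

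Promoters are shown first because the genes are grouped by hormone response, and because the sequences differ in the half-site bound by oestrogen receptor. RefSeq sequences (GRCm38.p6, the assembly also called mm10) were found for all 7 genes, with 9 start sites in all. Each was searched over the 250 bases before the start, on both strands, for the half-site GGTCA, the full palindrome GGTCANNNTGACC and the C/EBP core TTGCNNAA. The palindrome contains the half-site, so those searches overlap. Below, capitals mark half-sites and C/EBP cores, read 5′ to 3′ on the strand of the gene, and bases that the GENCODE M21 annotation places in an exon are left out.
Prap1, chr7:140093146-140093394, plus strand: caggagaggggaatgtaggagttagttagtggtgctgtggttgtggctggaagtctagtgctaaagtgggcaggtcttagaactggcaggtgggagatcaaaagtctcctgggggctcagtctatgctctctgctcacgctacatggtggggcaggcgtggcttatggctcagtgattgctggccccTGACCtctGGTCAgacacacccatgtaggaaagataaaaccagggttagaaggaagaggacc
Ltf, chr9:111019042-111019270, plus strand: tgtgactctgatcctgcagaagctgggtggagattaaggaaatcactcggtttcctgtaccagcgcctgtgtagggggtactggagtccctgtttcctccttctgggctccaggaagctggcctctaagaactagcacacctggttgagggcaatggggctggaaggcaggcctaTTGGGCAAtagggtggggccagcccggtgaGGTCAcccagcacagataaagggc
C3, chr17:57228137-57228386, minus strand: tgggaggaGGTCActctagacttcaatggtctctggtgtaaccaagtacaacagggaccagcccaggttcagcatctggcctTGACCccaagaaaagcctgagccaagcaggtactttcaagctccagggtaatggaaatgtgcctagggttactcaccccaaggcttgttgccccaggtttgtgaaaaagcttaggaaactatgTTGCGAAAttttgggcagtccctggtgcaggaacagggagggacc
Greb1, chr12:16800887-16801136, minus strand: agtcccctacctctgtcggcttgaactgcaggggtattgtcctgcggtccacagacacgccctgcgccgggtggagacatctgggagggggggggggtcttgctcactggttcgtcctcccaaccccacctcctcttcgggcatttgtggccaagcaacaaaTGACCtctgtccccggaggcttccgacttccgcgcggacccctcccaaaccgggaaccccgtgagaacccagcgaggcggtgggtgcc
Muc1, chr3:89228806-89229055, plus strand: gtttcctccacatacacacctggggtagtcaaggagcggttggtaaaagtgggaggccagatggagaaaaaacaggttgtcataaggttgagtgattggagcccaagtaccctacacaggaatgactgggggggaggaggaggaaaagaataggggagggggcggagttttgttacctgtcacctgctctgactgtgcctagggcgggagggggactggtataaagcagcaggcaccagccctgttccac

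A half-site was found for 5 of the 7 genes (Prap1, Ltf, C3, Greb1 and Wfdc2), in 6 of the 9 windows of all 7 genes. The 2 Wfdc2 windows start 1 base apart, and the match lies at the last 5 bases of 1 of them and is cut off in the other. Of all 32851 promoter windows in the same table, 35.2% hold one. In Prap1 a pair of half-sites, turned outward with 3 bases between them (TGACCTCTGGTCA), lies 63 to 51 bases before the start. That arrangement was searched for after it was seen in Prap1, and 0.0457% of all windows hold it. No member's window held the full palindrome, which 0.0639% of all windows hold. A C/EBP core was found in Lcn2, Ltf and C3, against 9.56% of all windows. The Muc1 window, printed in lower case throughout, held none of these motifs. A second Greb1 window, at a start inside the gene, held 2 separate half-sites on the same strand and is not shown. The Lcn2 and Wfdc2 windows are not shown, because the annotation places 197 and 146 of their 250 bases in exons. A match of letters is a description of the sequence and not evidence of binding.

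Each value is of the FPKM type (reads scaled by gene length and by library depth), so levels of different genes can be compared. Total reads per library are unknown, and the low values place the deepest library at 1.259 times the depth of the shallowest. The targeted gene Nat10 had 13.2, 16.4 and 9.95 in controls against 5.57, 5.23 and 5.53 in d/d uteri, where its mean was 41.4% of that of the controls. The library labelled d/d replicate 2 stood apart: it scored 40.2 on the first principal component of 12640 tested genes (48.4% of the variance), where the others lay between -25.1 and 4.61. Mki67, a marker of cycling cells, was 24.0 in that library, 2.3 and 1.28 in the other d/d libraries, and 2.47 to 10.7 in controls. The changes of the 7 members are therefore given with and without it. Genes entered the test when 3 or more libraries reached a value of 1, and all 7 members reached 1 in every library. limma called none of the 12640 genes at an adjusted p of 0.05 (0% of those tested), with 630 at an unadjusted p under 0.05, and no other tool was run.

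The members covered a wide range of levels in controls. Wfdc2 was far above the others, Prap1 and C3 followed, Muc1 was lower, and Lcn2, Greb1 and Ltf were lowest, at 2.21 to 3.92 on average. Among neighbours in this order, the control ranges of C3 and Muc1 overlapped, and so did those of Lcn2 and Greb1 and of Greb1 and Ltf. In the d/d uteri Lcn2 stood level with Muc1, at means of 14.5 for each.

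Lcn2 was the member that was higher in every d/d uterus. It encodes lipocalin 2, which binds the iron-carrying siderophores of bacteria (ENSMUSG00000026822; chromosome 2, 32384633 to 32388252, minus strand). Values were 2.46, 4.51 and 4.78 in control replicates 1, 2 and 3, and 17.3, 19.8 and 6.37 in d/d replicates 1, 2 and 3. The groups did not overlap, although d/d replicate 3 lay much nearer the controls than the other d/d uteri. The mean was 3.92 ± 1.27 in controls and 14.5 ± 7.12 in d/d uteri (SD, n = 3), a ratio of 3.69. The difference in mean log2(value + 1), a scale that compresses changes at low levels, was 1.55 (SE 0.4), and 1.27 without d/d replicate 2.

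Ltf encodes lactoferrin, an iron-binding antimicrobial protein that is a classical oestrogen-induced secretion of the mouse uterus (ENSMUSG00000032496; chromosome 9, 111019271 to 111042767, plus strand). It was low in all 6 libraries. The controls had 2.02, 2.2 and 2.42, and d/d replicates 1, 2 and 3 had 5.19, 2.32 and 2.78. Above the controls stood d/d replicate 1 and, by a small margin, d/d replicate 3, while d/d replicate 2 lay within their range. The log2 difference was 0.41 (SE 0.24), and 0.14 without d/d replicate 1 and 0.59 without d/d replicate 2. The genes most like Ltf over the 6 libraries were Clec4a1 and Fnbp4, each at a root mean square difference of 0.08 log2 units from its profile, against a spread of 0.35 for Ltf.

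Both proteins are stored in neutrophil granules, so the neutrophil markers are given beside them. The summed value of 11 neutrophil markers was 1.47 to 8.96 in controls and 1.17 to 5.45 in d/d uteri. Camp, a granule gene, was listed at 0 in every library, and 9 of the 11 markers, all but S100a8 and S100a9, stayed under 1 in all libraries. In d/d replicate 2, where Lcn2 was highest, the sum was 1.17 and S100a8 and S100a9 were listed at 0. In d/d replicates 1 and 3 the sum was 5.45 and 5.05, so that the order of the d/d uteri by this sum was the order by Ltf and not that by Lcn2. The controls did not share this order. Their sums were 8.96, 1.47 and 2.91 in replicates 1, 2 and 3, and replicate 1 had the lowest Ltf and the lowest Lcn2. The part of neutrophils in the values of both genes was not tested.

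**Figure D1:**
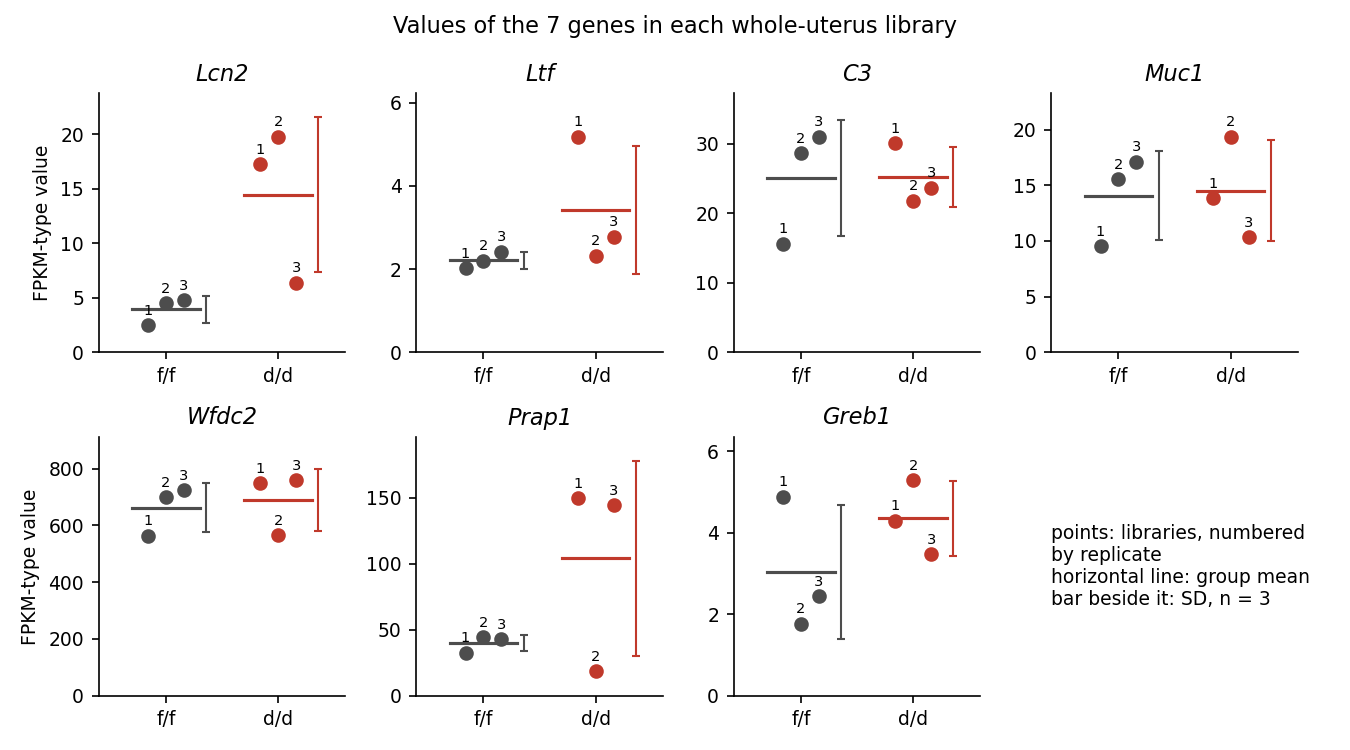
FPKM-type value (vertical axes, each from 0) of each gene in the 3 f/f and 3 d/d libraries, with group means as lines and SD as bars. Lcn2 is the gene whose groups do not overlap, and Prap1 has d/d replicates 1 and 3 at 149 and 144 but d/d replicate 2 at 18.6.

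C3 encodes the central component of complement, made in the uterine epithelium under oestrogen and also by stromal cells and macrophages (ENSMUSG00000024164; chromosome 17, 57203970 to 57228136, minus strand). Its values were 15.6, 28.6 and 31.0 in control replicates 1, 2 and 3, and 30.1, 21.8 and 23.7 in d/d replicates 1, 2 and 3. All d/d values lay inside the control range. The log2 difference was 0.05 (SE 0.26), and it was -0.25 without control replicate 1 and 0.14 without d/d replicate 2. The tested genes whose profile over the 6 libraries was most like that of C3 were C1qc and Cd48, with root mean square differences of 0.1 and 0.11 log2 units against a spread of 0.33 for C3 itself. C1qc belongs to the macrophage markers, whose sum was 191 to 266 in controls and 184 to 252 in d/d uteri. It was lowest among the controls in replicate 1, as C3 was.

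The other complement genes, 13 of 16 tested, had 0 called and a median log2 change of 0.16, against 0.03 over all tested genes. Their groups did not overlap for 1 of the 13, a share below the 10.7% of all tested genes. It was Cfb, which encodes the factor B protease that cleaves C3 in the alternative pathway. Cfb was 1.78, 3.64 and 5.56 in controls and 16.9, 19.6 and 6.81 in d/d uteri, a log2 difference of 1.70 (SE 0.43; limma adjusted p 0.922), and 1.43 without d/d replicate 2. The log2 difference was -0.37 for C1s1, a protease of the classical pathway, and 0.33 for Cd55, an inhibitor of complement on the cell surface, both with overlap. C3 and Cfb thus had different orders over the same libraries.

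The gene most like Lcn2 in its profile over the 6 libraries was Cfb, out of all tested genes other than the members. The root mean square difference between their centred log2 profiles was 0.17, against a spread of 0.94 for Lcn2 itself. Both were highest in d/d replicate 2, next in d/d replicate 1, and lowest in control replicate 1. Ccl7, which encodes a chemokine, came second at 0.37. It differed from Lcn2 in d/d replicate 3, where Ccl7 was 1.08 and inside the control range of 0.792 to 2.51. With 6 libraries such a ranking describes likeness and carries no test.

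Lcn2 and Cfb are both known to be inducible by inflammatory cytokines, so the list of cytokine-induced genes is given. Of its 12 genes, 5 were tested, 0 were called, and 6 stayed under 1 in all libraries. On average 4 of the 5 were higher and 1 lower in d/d uteri, with a median log2 change of 0.18. The groups did not overlap for 1 of the 5, where 10.7% of all tested genes had no overlap. Nfkbiz, a cofactor of NF-kB that is needed for Lcn2 induction, was 5.26, 6.45 and 6.38 in controls and 9.97, 8.42 and 7.65 in d/d uteri, without overlap (log2 difference 0.46, SE 0.14; limma adjusted p 0.922). Tnfaip3, a feedback inhibitor of NF-kB, differed by 0.18 and Ccl2, a monocyte chemokine, by 0.89, both with overlap. The lower gene, named after its values were seen, was Nfkbia, with a log2 difference of -0.20 and overlap. It was 52.1, 50.8 and 56.4 in controls and 54.1, 31.5 and 56.6 in d/d uteri. Its lowest value was thus in d/d replicate 2, where Lcn2 was highest. The cytokine gene Il6 did not exceed 0.0884 in any library. The interferon-response sum was 144 to 687 in controls and 409 to 1417 in d/d uteri. It was highest in d/d replicate 1, which was also highest for Ltf, and its part in the values of the members was not tested.

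**Figure D2:**
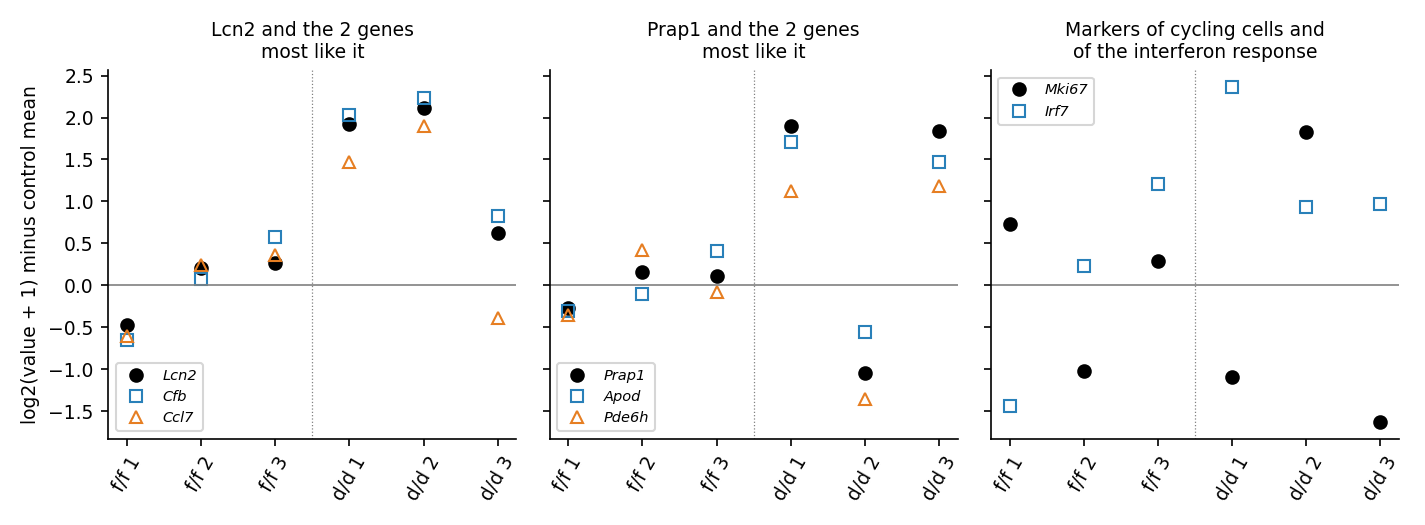
Each point is log2(value + 1) in a library minus the control mean (vertical axis), for 3 f/f and 3 d/d libraries (horizontal axis). Lcn2 and Cfb have similar positions in all 6 libraries, Prap1 and Apod are low in d/d replicate 2, and Mki67 is highest there.

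Prap1 showed the widest spread of the members. It encodes a secreted proline-rich acidic protein found in uterine and intestinal epithelium (ENSMUSG00000025467; chromosome 7, 140093395 to 140097200, plus strand). The controls had 32.5, 44.3 and 42.7, while d/d replicates 1, 2 and 3 had 149, 18.6 and 144. The d/d uteri took opposite positions, with d/d replicates 1 and 3 at 3.75 and 3.62 times the control mean and d/d replicate 2 at 0.467 times, below every control. The mean was 39.8 ± 6.39 in controls and 104 ± 74.1 in d/d uteri (SD, n = 3). The log2 difference was 0.90 (SE 0.72) with all libraries and 1.87 without d/d replicate 2. It was 0.40 without d/d replicate 1 and 0.42 without d/d replicate 3.

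In rank, Prap1 stood 412th and 397th among the listed genes in d/d replicates 1 and 3, and 4920th in d/d replicate 2. In each group the library with the highest Mki67 had the lowest Prap1, namely control replicate 1 (Mki67 10.7) and d/d replicate 2 (Mki67 24.0). The order of the controls was reversed throughout, with Mki67 at 2.47 in replicate 2 and 7.57 in replicate 3. That of the d/d uteri was not, since replicate 1 was above replicate 3 for both genes (Mki67 2.3 and 1.28). Proliferation markers as a list had sums of 45.1 to 103 in controls and 34.4, 263 and 19.6 in d/d replicates 1, 2 and 3, and their part in the Prap1 values was not tested. The genes most like Prap1 were Apod, which encodes a lipid-binding lipocalin (1.52, 1.88 and 3.14 in controls; 9.13, 1.12 and 7.61 in d/d uteri), and Pde6h. Their root mean square differences from Prap1 were 0.31 and 0.35, against a spread of 1.08 for Prap1. Fuom overlaps Prap1 on the opposite strand, and whether counting used strand is not stated. Fuom was 8.09 to 9.41 in controls and 8.27 to 10.2 in d/d uteri, so it did not share the spread of Prap1.

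Muc1 encodes a transmembrane mucin of the luminal surface, which both ovarian hormones regulate in the mouse (ENSMUSG00000042784; chromosome 3, 89229057 to 89233381, plus strand). The control libraries had 9.54, 15.6 and 17.1, and the d/d libraries 13.8, 19.4 and 10.4. The groups overlapped broadly, with d/d replicate 2 above the highest control. The log2 difference was 0.04 (SE 0.27) with all libraries, and -0.18 without d/d replicate 2. S100a4 and Mmp3 had the profiles most like that of Muc1, each with a root mean square difference of 0.12 against a spread of 0.34.

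Wfdc2 encodes a secreted protein with whey acidic protein domains, abundant in epithelia of the reproductive tract (ENSMUSG00000017723; chromosome 2, 164562413 to 164568510, plus strand). It was 563, 699 and 724 in controls and 748, 565 and 759 in d/d uteri. It was the most abundant member throughout, standing between 96th and 134th among listed genes. The means were 662 ± 86.7 and 691 ± 109 (SD, n = 3), a log2 difference of 0.06 (SE 0.17) that was 0.19 without d/d replicate 2 and turned to -0.03 after quantile normalization. The lowest value of each group was nearly the same, 563 in control replicate 1 and 565 in d/d replicate 2. Parp6 and Fhod3 were most like it, at 0.04 each against a spread of 0.18.

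Wfdc2 is also strongly expressed in the oviduct, so the oviduct markers were examined. The secretory marker Ovgp1 was 1.73 to 6.42 in controls and 0.817 to 4.01 in d/d uteri, and the ciliated-cell factor Foxj1 stayed at or under 0.396. The sum of the 6 markers, 252 to 276 in controls and 148 to 297 in d/d uteri, was nearly all Tppp3 (138 to 290), a gene also made by other cells. Of the 4 that were tested, 2 were higher and 2 lower on average. Rsph1, a gene of the cilium, was higher without overlap, at 1.1, 1.01 and 2.06 in controls and 2.5, 2.7 and 2.35 in d/d uteri (named after its values were seen). The part of oviduct in the Wfdc2 values was not tested. Among other mucosal defence genes, 6 of 15 passed the filter and 0 were called. Their groups all overlapped, and their median log2 change was 0.14. The 3 with the smallest p were the lysozyme gene Lyz1 (-0.74), the Wfdc2 relative Wfdc15b (0.18) and the acute-phase gene Saa1 (0.21).

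Greb1 encodes a cofactor of Esr1 and is itself an oestrogen target (ENSMUSG00000036523; chromosome 12, 16670615 to 16800886, minus strand). It stood at 4.89, 1.77 and 2.44 in controls and at 4.3, 5.29 and 3.47 in d/d uteri. The annotation places an antisense gene, Gm48140, over Greb1, and with the strand setting unstated, reads of the 2 cannot be told apart. Each d/d value exceeded control replicates 2 and 3, and control replicate 1 lay among the d/d values. The log2 difference was 0.47 (SE 0.28), 0.78 without control replicate 1, 0.24 without control replicate 2 and 0.35 without d/d replicate 2. The genes most like it were Wif1 and Aldh1a1, with root mean square differences of 0.11 and 0.14 against a spread of 0.42.

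Taking the 7 members as a list, the mean log2 value was higher in d/d uteri for 7 of 7, against 56.6% of all tested genes. For 3 of them, C3, Muc1 and Wfdc2, the difference was smaller than its standard error, and each changed sign when 1 library was left out. The median change was 0.41, against 0.03 over all tested genes, and 0.14 without d/d replicate 1. The groups did not overlap for 1 of 7, where 10.7% of all tested genes had no overlap (6.12% higher and 4.6% lower in d/d uteri). Without d/d replicate 2 there was no overlap for 4 of 7 (Prap1, Ltf, Lcn2 and Wfdc2), where the share of all tested genes was 31.8% (17.4% higher). Leaving out a library can only keep or raise such counts. The same fit without that library called 1 of the 7 (Prap1) and 0.0958% of tested genes. With array quality weights, which give less weight to libraries whose genes lie far from the fitted group means (0.224 for d/d replicate 2 and 3.74 for d/d replicate 1), it called 3 of the 7 (Lcn2, Ltf and Prap1) and 2.5% of tested genes. Since the members were chosen with this comparison known, nothing is read from these counts.

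**Figure D3:**
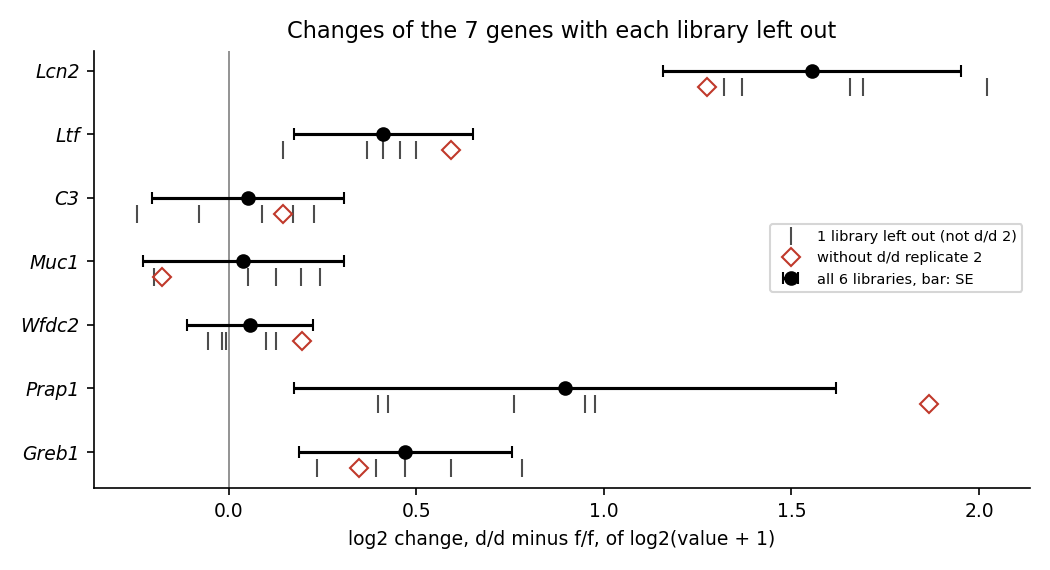
Difference in mean log2(value + 1), d/d minus f/f (horizontal axis), for each gene. Circles use all 6 libraries with SE bars, ticks leave out 1 library, and diamonds leave out d/d replicate 2; Prap1 moves from 0.90 to 1.87 without that library, and C3, Muc1 and Wfdc2 lie on both sides of 0.

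The ratio of standard deviations (d/d over control, log2 scale) had a median of 1.73 over all tested genes. It was above that for Prap1, Ltf and Lcn2, at 7.09, 5.26 and 1.99, and below it for the other 4 members. It was 1.22 for Wfdc2, 1.01 for Muc1, 0.449 for C3 and 0.441 for Greb1. In both C3 and Greb1 control replicate 1 lay apart from the other controls. That library was the lowest control for 6 of the 7 members, all but Greb1, for which it was the highest. It also had the largest sums of red blood cell genes (5581, against 2629 and 852 in control replicates 2 and 3) and of fat genes (76.3, against 2 and 5.76), and the smallest macrophage and interferon-response sums among the controls. Their part in the low values of that library was not tested.

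Whole uterus was sequenced, so a gene's value depends on how much epithelium a library holds as well as on the RNA per cell, and these cannot be told apart. All 15 epithelial markers were present. Their mean log2 level was 5.32 ± 0.05 in controls and 5.45 ± 0.157 in d/d uteri (SD, n = 3), a difference of 0.13. The two-sided exact permutation p was 0.3, where 0.1 is the smallest that 3 against 3 allows. Without d/d replicate 2 the difference was 0.21 and the exact p 0.1, again the smallest possible. Without d/d replicate 3 it was 0.05 with an exact p of 0.5, and after quantile normalization 0.09 with an exact p of 0.6. For Epcam and Krt8 only, it was 0.18 with an exact p of 0.1. The level was 5.26, 5.33 and 5.36 in controls and 5.46, 5.29 and 5.6 in d/d replicates 1, 2 and 3. With this level subtracted library by library, the difference was 1.42 for Lcn2, without overlap, and 0.77 for Prap1, with d/d replicates 1 and 3 above and replicate 2 below all controls. It was 0.28 for Ltf, 0.34 for Greb1, and -0.08, -0.09 and -0.07 for C3, Muc1 and Wfdc2.

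Of the 15 epithelial markers, 11 were higher and 4 lower in d/d uteri on average, where 56.6% of all tested genes were higher. The groups did not overlap for 4 (Epcam and, named after their values were seen, Cldn7, Esrp1 and Prom1), all of them higher, where 6.12% of all tested genes were higher without overlap. Epcam, which encodes an epithelial adhesion molecule, was 47.0 to 56.9 in controls and 58.0 to 64.2 in d/d uteri. Of 6 luminal epithelium markers, 5 were higher on average, and Wnt7a and Calb1, named after their values were seen, had no overlap. Wnt7a, a signalling ligand of the luminal epithelium, was 9.65, 13.4 and 13.8 in controls and 21.1, 24.7 and 14.8 in d/d uteri. That was the order of Lcn2 over the 6 libraries. The other luminal markers differed from it. In the d/d uteri Lpar3, Msx1 and Klf5 had the reverse order, highest in replicate 3 and lowest in replicate 2. Met had the order of Lcn2 in the d/d uteri but not in controls, and Calb1 had neither order. All 6 stromal and all 5 endothelial markers were lower on average, with a median log2 change of -0.28 and -0.32. The part of these cell types in the members' values was not tested. Foxa2, the factor that marks gland epithelium, was 2.06 to 2.72 in controls and 1.14 to 1.75 in d/d uteri. Prss28 and Prss29, secreted by mature glands, were listed at 0 in 5 of the 6 libraries. Keratin genes of stratified epithelium, which lines the vagina, were low: Krt5 was 0.572 to 2.79 in controls and 0.352 to 0.463 in d/d uteri, and Krt14 did not exceed 0.413. Of 5 mesothelial markers, 2 were higher and 3 lower on average. Msln, which was 4.08 to 6.24 in controls and 2.83 to 3.67 in d/d uteri, was 1 of 2 that were lower without overlap. Of all tested genes, 4.6% were lower without overlap.

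The other oestrogen-induced genes of the uterus differed in both directions. Of 19 listed, 16 were tested and 0 were called by limma, with 5 at an unadjusted p under 0.05. On average 5 were higher and 11 lower in d/d uteri, with a median log2 change of -0.15. The groups did not overlap for 6 of 16, against 10.7% of all tested genes, with 2 higher and 4 lower. Both the count by p and that without overlap include Sprr2f, which entered the test only through the d/d uteri. The list was chosen with earlier results of these data known, so nothing is read from these counts.

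Pgr, the progesterone receptor gene and an oestrogen target, had the smallest p in the list. It was 73.8, 62.2 and 60.3 in controls and 35.3, 25.4 and 32.6 in d/d uteri (log2 difference -1.06, SE 0.15; limma adjusted p 0.669). Ramp3, a receptor-modifying protein for adrenomedullin, was 24.3, 17.0 and 20.4 in controls and 11.4, 11.9 and 9.07 in d/d uteri (-0.86, SE 0.16; limma adjusted p 0.778). Padi1, which encodes an enzyme that turns protein arginine into citrulline, was 8.26, 8.36 and 9.01 in controls and 3.41, 5.5 and 3.47 in d/d uteri (-0.92, SE 0.17; limma adjusted p 0.778). In each of these genes every d/d uterus lay below every control. Without d/d replicate 2 the log2 differences were -0.92 for Pgr, -0.93 for Ramp3 and -1.10 for Padi1, with limma adjusted p of 0.0528, 0.131 and 0.0349. The genes were named by their p in these same data, and the library left out was picked from its values. These p-values are therefore no independent support, and with all libraries none of these genes was called.

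The other 3 genes without overlap were named after their values were seen. Sprr2f, a small proline-rich protein gene of the uterine epithelium, was 0.927, 0.677 and 1 in controls and 2.71, 6.28 and 2.22 in d/d uteri (log2 difference 1.25, SE 0.3; limma adjusted p 0.922). It was under 1 in all controls (the value given as 1 is rounded up), so it entered the test only through the d/d uteri, and a gene that does so has to differ. Cftr, the chloride channel gene, differed by 0.37 and Vegfa, a vascular growth factor gene, by -0.37.

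**Figure D4:**
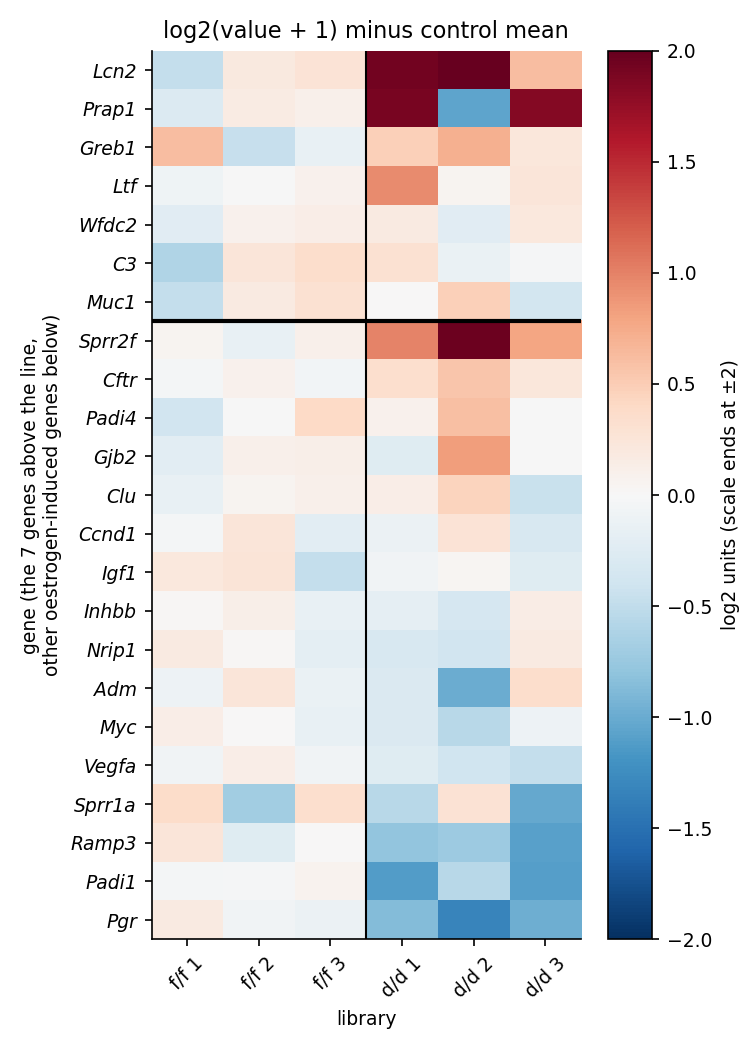
Rows are genes and columns are libraries; colour is log2(value + 1) minus the control mean, with the 7 members above the line and the 16 other tested oestrogen-induced genes below. Lcn2 and Sprr2f are high in all d/d columns, Pgr, Padi1 and Ramp3 are low in all of them, and Prap1 is high in d/d 1 and 3 and low in d/d 2.

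The receptors through which the members are regulated were also examined. Esr1 was 134, 129 and 83.9 in controls and 101, 102 and 106 in d/d uteri, so that all d/d values lay inside the control range (log2 difference -0.14, SE 0.18). Of the 16 genes for steroid receptors, coregulators and steroid enzymes, which include Pgr, 11 were tested and 0 called. On average 10 of the 11 were lower, with a median of -0.17. Cyp19a1, the aromatase that makes oestrogen, was listed at 0 in every library.

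Progesterone-induced genes differed in both directions as well. Of 12 listed, 10 were tested and 0 called, with 7 higher and 3 lower on average and a median log2 change of 0.42. Acod1, the itaconate-producing enzyme induced by progesterone in the luminal epithelium, was 1.44, 2.38 and 1.26 in controls and 4.47, 4.05 and 8.15 in d/d uteri, without overlap (log2 difference 1.25, SE 0.26; limma adjusted p 0.806). Il13ra2, a decoy receptor for interleukin 13, was 0.78 higher with overlap. Fst, which encodes the activin-binding protein follistatin, was 6.1, 2.15 and 2.73 in controls and 1.02, 1.16 and 1.64 in d/d uteri, without overlap (-0.95, SE 0.3; limma adjusted p 0.922).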

How the data were processed

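PolyA RNA of whole uterus was measured in 6 libraries, grouped and numbered by sample title. The authors deposited 1 table per library with an Ensembl identifier, a symbol and an FPKM-type value for each of 20637 genes. The unit was inferred from the values and from Cufflinks being named. The submitters' processing notes name mm10, HISAT2 2.2.1 and Cufflinks 2.2.1, without roles. The annotation, strand setting and gene filter are not given in the sources used here. GENCODE M21, of the same assembly, matched 20558 identifiers.

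Values were analysed as log2(value + 1), for genes with at least 1 in at least 3 libraries (12640 genes), with limma 3.58.1 in R 4.3.3 (mean-variance trend, group as sole term). Tests were two-sided, with Benjamini-Hochberg adjustment over all tested genes and a threshold of 0.05. The fit was tested on simulated data. Relative depth was estimated from the most frequent ratio of low values between libraries. Total reads are unknown, so no counting intervals are given. Likeness of profiles is the root mean square difference of log2 values centred over the 6 libraries. Members, gene lists, tests and alternatives were chosen with earlier results of these data known. Named genes were Nat10, the members, 2 genes most like each member, the 3 smallest p-values of each pathway list and defining markers. Some genes that this rule names are not reported here. Alternatives were other scalings, pseudocount 0.1, other filters, no trend, array quality weights, a replicate block and leaving out each library. Those needing counts were not run. Python 3.11.15 with pandas 2.3.3, numpy 2.4.6 and matplotlib 3.10.9 was used.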

Additional observations from a re-analysis of the deposited data

How the results depend on the processing

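The count of called genes (0) became 316 with array quality weights and 12 without d/d replicate 2. Leaving out any other library gave 0. With array quality weights, 4 oestrogen-induced genes (Padi1, Pgr, Ramp3 and Sprr2f) and 3 of the 7 members were called, against 2.5% of all tested genes. Without d/d replicate 2, 1 oestrogen-induced gene (Padi1) and 1 member were called, against 0.0958%. Other settings called 0 of both. Sprr2f entered the test only through the d/d uteri. The members and the list were chosen with earlier results known, so nothing is read from these counts. The cause of the changed counts was not tested. With 1 library left out, the median change over the 7 genes was 0.144 to 0.4232 and the epithelial difference 0.05414 to 0.2108, and no overlap was found for 1 to 4 of the 7 genes and for 6 to 11 of the 16 oestrogen-induced genes, where the share of all tested genes was 15% to 31.8% (counts added after the values were seen, which leaving out a library can only keep or raise). With array quality weights the log2 changes were 1.79 for Prap1, 0.84 for Ltf, 1.89 for Lcn2, 0.36 for C3, 0.08 for Muc1, 0.20 for Wfdc2 and 0.35 for Greb1. Lcn2, Prap1, Ltf and Greb1 kept their direction under the 12 alternatives that can move a mean difference, while C3, Muc1 and Wfdc2 changed sign in 3, 3 and 5. With the replicate block, 0 genes were called. Same-numbered libraries did not deviate together (correlations -0.341, -0.0287 and 0.1), so the numbers were not taken as pairs. Reads per library are unknown, which limits statements on the low genes Ltf, Greb1 and Lcn2.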
